A study of Mus musculus with 12 samples.

Results

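The liver's ER stress and ATF4 response was followed through 10 genes, *Atf4*, *Ddit3*, *Asns*, *Chac1*, *Atf5*, *Xbp1*, *Hspa5*, *Dnajb9*, *Herpud1* and *Ppp1r15a*. They were taken by symbol, with earlier results of these data known, and all are reported whatever their values. They made up 11 of the 54838 rows of the count table. The 11th row is a second identifier of *Ddit3* with 105 exon bases inside the first, and it held 0 counts in all 12 libraries. All 12 libraries came from whole livers of female C57BL/6J mice, aged 8 to 14 weeks, 3 mice in each of 4 groups. The water-PBS group drank normal water and received PBS, the zinc-PBS group drank 25 mM ZnSO4 for 7 days and received PBS, the water-Dex group drank normal water and received 200 μg of dexamethasone (Dex), a synthetic glucocorticoid, and the zinc-Dex group received both. PBS or Dex was injected i.p. 2 h before the liver was taken. No mouse in these groups carried a mutation by its label and none received an ER stressor. The comparisons ask whether zinc, Dex or the combination moved the RNA of these genes in the liver.

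The unfolded protein response is the cell's answer to misfolded protein in the endoplasmic reticulum (ER). It runs through a set of membrane sensors: IRE1, which splices the *Xbp1* mRNA into the form that encodes an active transcription factor, ATF6, which is cut to release a transcription factor, and PERK, which phosphorylates the initiation factor eIF2α. Phosphorylated eIF2α slows general translation while it favours translation of ATF4, and the same step can be reached from GCN2 when amino acids run short, so the ATF4 side is also called the integrated stress response. Hepatocytes secrete large amounts of protein and keep a well developed ER with a high content of chaperones. Gene-level read counts cannot separate spliced from unspliced *Xbp1*, and they do not show translation of ATF4.

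Promoter sequence is given for the members that the results turn on, because *Herpud1* and *Hspa5* are both textbook targets of the unfolded protein response and *Herpud1* was called with Dex while *Hspa5* was not. All 10 members were found in RefSeq on GRCm38.p6, with 11 promoter windows, since *Atf5* has 2. A window ran from 250 bases before the start to 50 bases after it, and the share of all 32851 such windows with a motif on either strand is given as the background. The ER stress element, CCAAT and CCACG with 9 bases between them, occurred in 0.119% of all windows and, among the members, only in that of *Hspa5*. A second form, ATTGG and CCACG with 1 base between them, which was searched after the sequences had been seen, occurred in 0.0365% of all windows and, among the members, only in that of *Herpud1*. The half-site CCACG, which both elements contain, stood in the windows of 8 members and in 32.8% of all windows. TGATGNAA, the site of C/EBP-ATF dimers through which ATF4 acts, stood in the windows of *Chac1*, *Asns* and *Herpud1* and in 3.97% of all windows. TGACGTGG, a site of ATF6 and XBP1, and ACANNNTGT, the core of a glucocorticoid receptor binding site, were in no member's window and in 0.676% and 6.85% of all windows, respectively. A match is a description of letters, and no match says only that these letters are not in this window. The 250 bases before the start are printed 5′ to 3′ on the strand of the gene, all plus strand, and capitals mark the matches to these motifs.
Herpud1, chr8:94386179-94386428: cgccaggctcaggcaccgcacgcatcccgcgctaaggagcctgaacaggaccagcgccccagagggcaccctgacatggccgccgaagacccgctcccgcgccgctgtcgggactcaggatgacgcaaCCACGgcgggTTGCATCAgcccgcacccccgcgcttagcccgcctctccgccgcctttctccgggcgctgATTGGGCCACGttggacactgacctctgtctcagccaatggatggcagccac
Hspa5, chr2:34771840-34772089: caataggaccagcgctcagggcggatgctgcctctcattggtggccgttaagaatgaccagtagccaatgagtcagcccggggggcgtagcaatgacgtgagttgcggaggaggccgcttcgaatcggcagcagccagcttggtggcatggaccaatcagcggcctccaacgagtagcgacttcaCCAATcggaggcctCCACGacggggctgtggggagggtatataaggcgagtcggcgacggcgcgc
Xbp1, chr11:5520391-5520640: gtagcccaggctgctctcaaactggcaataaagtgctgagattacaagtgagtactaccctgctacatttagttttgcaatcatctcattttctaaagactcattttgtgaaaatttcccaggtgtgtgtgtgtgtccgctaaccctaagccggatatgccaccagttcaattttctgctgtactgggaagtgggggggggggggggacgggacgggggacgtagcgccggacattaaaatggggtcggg
Ddit3, chr10:127290543-127290792: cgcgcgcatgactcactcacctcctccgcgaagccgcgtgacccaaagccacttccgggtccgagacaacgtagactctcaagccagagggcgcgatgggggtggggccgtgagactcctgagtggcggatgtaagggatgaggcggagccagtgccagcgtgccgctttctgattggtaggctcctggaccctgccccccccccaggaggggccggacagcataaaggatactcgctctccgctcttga
In *Herpud1* the second ER stress element lay 52 to 42 bases before the start, and a further CCACG and a TGATGNAA match on the opposite strand lay upstream of it. In *Hspa5* the ER stress element lay 65 to 47 bases before the start. The windows of *Xbp1* and *Ddit3* held none of the motifs.

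The libraries held 9091152 to 12303527 counts, and mitochondrial genes took 5.46 to 6.17% of them. The tissue matched its label, as all 5 hepatocyte markers were present in every library, with a summed level of 1141353 to 1632677 normalized counts (counts divided by the library's size factor), and 5 of 6 markers of pancreatic acinar cells, a cell type rich in ER, had at most 1 count in any library. Plasma cell markers summed to 10.9 to 31.5 normalized counts. The endothelial markers summed to 2303 to 2581 in water-PBS and 2534 to 2821 in water-Dex, and among them *Lyve1* rose and *Kdr* fell with Dex. Markers of T or B cells summed to 19.1 to 23.1 normalized counts in water-PBS and 2.97 to 7.11 in water-Dex, and of these *Ms4a1* fell with Dex in water-drinking mice (adjusted p = 0.0129). In zinc-drinking mice *Vil1*, on the gut epithelium list, fell and *Hba-a1*, on the red blood cell list, rose with Dex. Their part in the results below, such as that of the low *Ddit3*, was not tested. In whole tissue, fewer cells of a type and less RNA per cell cannot be told apart. A list of early response and inflammation genes (*Egr1*, *Fos*, *Junb*, *Cxcl1*, *Socs3*) summed to 4218, 1172 and 666.6 normalized counts in the 3 water-PBS mice, to 7572, 1073 and 1776 in the zinc-PBS mice, and to 231.5 to 407.5 in the 6 Dex mice. The first PBS mouse of each drinking group therefore stood apart, and 1 of them, water-PBS replicate 1, also stood apart in the ER genes, as described at the end. By this sum both are called rich in early response RNA below, but different genes made it up. Water-PBS replicate 1 was high in *Egr1* (3379, beside 550.6 and 302.0) and not in *Cxcl1* (63.0, beside 70.1 and 47.2). Zinc-PBS replicate 1 was highest in its group for *Egr1* (1554), *Junb* (2177), *Socs3* (701.3) and above all *Cxcl1* (3021, beside 50.7 and 163.0). Values without both of these mice are given beside main results that they change. The part of early response RNA in the results was not tested otherwise.

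Compared as RPKM, counts scaled for exon length and library total, the members spanned more than 3 orders of magnitude. As the mean of the 12 livers, *Herpud1* stood at an RPKM of 280, *Hspa5* at 239.7, *Atf5* at 158.2, *Xbp1* at 67.2, *Dnajb9* at 38.6, *Atf4* at 37.5, *Ppp1r15a* at 3.83, *Ddit3* at 2.03, *Chac1* at 1.76 and *Asns* at 0.161. The stress-inducible effectors of the ATF4 branch were thus the least abundant members. On this scale *Herpud1* and *Hspa5* changed places between groups. In water-PBS livers *Hspa5* (261.8 ± 81.4, SD, n = 3) lay above *Herpud1* (155.9 ± 54.7), with *Atf5* (188.3 ± 23.3) between them, and their ranges of 1 SD overlapped from neighbour to neighbour. In water-Dex livers *Herpud1* (405.2 ± 27.9) lay above *Hspa5* (264.3 ± 14.5) with no such overlap. *Dnajb9* and *Atf4* were neighbours whose spread overlapped in all 4 groups, as were *Ddit3* and *Chac1*.

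**Figure D1:**
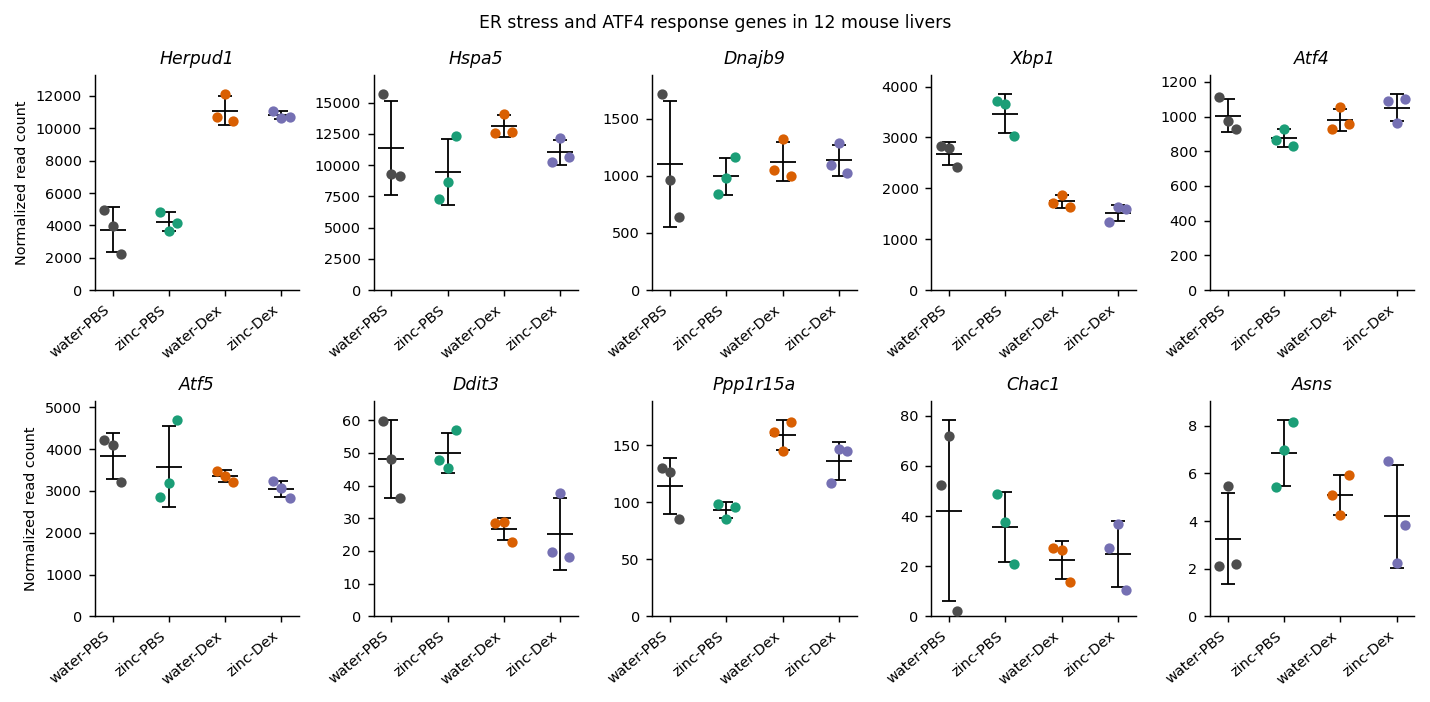
Normalized read counts (y axis, linear, from 0) of the 10 genes in each mouse (points), by group (x axis), with the mean (horizontal line) and SD (bars) of 3 mice. *Herpud1* lies at 2252 to 4976 in the 6 PBS mice and at 10422 to 12112 in the 6 Dex mice, *Xbp1* lies lower in all Dex mice than in all PBS mice, and *Hspa5* and *Dnajb9* have 1 high water-PBS mouse.

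Dex moved few of these genes, but *Herpud1* strongly. A gene was called when its adjusted p was under 0.05 and its absolute log2 fold change above 0.8. In water-drinking mice 1 of the 10 members was called higher with Dex (*Herpud1*) and 1 lower (*Ddit3*), against 4.89% of all genes tested called higher and 4.79% called lower. In zinc-drinking mice 1 was called higher (*Herpud1*) and 2 lower (*Xbp1* and *Ddit3*), against 5.0% and 4.68% of all genes tested. By adjusted p alone, 4 of 10 members passed in water-drinking mice and 5 of 10 in zinc-drinking mice, against 21.6% and 20.1% of all genes. The median log2 fold change of the 10 members was -0.01 and -0.02, beside -0.01 and -0.01 over all genes tested. All adjusted p-values are from DESeq2's Wald test with Benjamini-Hochberg adjustment over all genes tested.

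*Herpud1* (chr8:94386438-94395377, plus strand) encodes an ER membrane protein that takes part in ER-associated degradation of misfolded proteins. It had 4976, 3986 and 2252 normalized counts in the water-PBS mice, 4830, 3660 and 4147 in zinc-PBS, 10708, 12112 and 10422 in water-Dex, with 11095, 10631 and 10723 in zinc-Dex. Every Dex mouse lay above every PBS mouse, and the lowest Dex mouse had more than double the normalized count of the highest PBS mouse. *Herpud1* rose 2.96-fold with Dex in water-drinking mice (log2 fold change 1.57, SE 0.20, adjusted p = 3.4e-13) and 2.57-fold in zinc-drinking mice (1.36, SE 0.20, adjusted p = 4.7e-10). For a single gene with 3 mice per group, the smallest p an exact permutation test can give is 0.10, so the tests rest on the spread that the model shares across genes. Without both PBS mice rich in early response RNA the log2 fold change in water-drinking mice was 1.83, and leaving out any 1 mouse gave 1.31 to 1.83. The Dex mice also varied less, with an SD of log2 values of 0.12 in water-Dex and 0.03 in zinc-Dex beside 0.59 in water-PBS and 0.20 in zinc-PBS.

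*Xbp1* (chr11:5520659-5525893, plus strand), the transcription factor that IRE1 activates, moved the other way. It had 2826, 2792 and 2421 normalized counts in the water-PBS mice, 3715, 3660 and 3025 in zinc-PBS, 1706, 1878 and 1638 in water-Dex, with 1342, 1638 and 1584 in zinc-Dex. The 4 groups formed an order in which zinc-PBS lay highest and did not overlap water-PBS, both lay above both Dex groups, and the Dex groups met at 1638. In zinc-drinking mice *Xbp1* fell 2.28-fold with Dex (log2 fold change -1.19, SE 0.11, adjusted p = 4.6e-24). In water-drinking mice it passed the adjusted p but not the fold threshold (log2 fold change -0.62, SE 0.11, adjusted p = 6e-07). The difference between these 2 Dex effects was -0.57 on the log2 scale (95% interval -0.88 to -0.25, unadjusted p = 0.00039), and it did not pass after adjustment over all genes (adjusted p = 0.486). Among the wider pathway genes, *Ern1*, which encodes IRE1, passed the adjusted p in the direction opposite to *Xbp1*. Its log2 fold changes were 0.37 in water-drinking mice (adjusted p = 0.0405) and 0.69 in zinc-drinking mice (adjusted p = 1.1e-05). In water-drinking mice the groups overlapped, with 1320 normalized counts in water-PBS replicate 1 and 1251 in water-Dex replicate 1. In zinc-drinking mice they did not overlap. *Ern1* was named after its values were seen.

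*Ddit3* (chr10:127290774-127296288, plus strand) encodes CHOP, the transcription factor of the ATF4 branch that is tied to cell death under lasting ER stress. It had 59.9, 48.2 and 36.2 normalized counts in water-PBS, 47.8, 45.5 and 57.0 in zinc-PBS, 28.4, 28.7 and 22.8 in water-Dex, and in zinc-Dex 19.6, 37.8 and 18.3. All of these are low levels, and 1 zinc-Dex mouse lay just above the lowest PBS mouse. *Ddit3* fell 1.81-fold with Dex in water-drinking mice (log2 fold change -0.86, SE 0.31, adjusted p = 0.0315) and 2.00-fold in zinc-drinking mice (-1.0, SE 0.31, adjusted p = 0.00952). The call in water-drinking mice was lost without water-Dex replicate 1, 2 or 3 or water-PBS replicate 1 or 2 (adjusted p up to 0.184) and, with the replicate number as a block, at adjusted p = 0.0748. It was also lost without independent filtering, in a fit of only the 6 libraries compared, and without both PBS mice rich in early response RNA. The call in zinc-drinking mice was lost without zinc-PBS replicate 3 (adjusted p = 0.0717), zinc-Dex replicate 1 (0.079) or zinc-Dex replicate 3 (0.0989). Its exons share 68 bases, 4.0% of their length, with *Mars* on the opposite strand, and the strand setting of the counting is not given in the sources used here.

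*Atf4* itself (chr15:80255184-80257541, plus strand), the central transcription factor of the integrated stress response, was among the steadiest members. It had 1111, 974.7 and 929.1 normalized counts in water-PBS, 867.4, 931.0 and 831.1 in zinc-PBS, 931.0, 1054 and 954.8 in water-Dex, with 1092, 960.8 and 1102 in zinc-Dex. All 12 mice lay between 831.1 and 1111. With Dex its log2 fold change was -0.04 in water-drinking mice (95% interval -0.23 to 0.16) and 0.26 in zinc-drinking mice (95% interval 0.07 to 0.46), where it passed the adjusted p (0.0431) but not the fold threshold.

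*Ppp1r15a* (chr7:45522916-45526268, minus strand) encodes GADD34, which brings a phosphatase to eIF2α and so ends the block of translation. It had 130.2, 126.5 and 85.7 normalized counts in water-PBS, 98.4, 85.7 and 96.0 in zinc-PBS, 161.4, 144.6 and 170.2 in water-Dex, with 117.3, 146.6 and 145.1 in zinc-Dex. Within each drinking group no PBS mouse reached the lowest Dex mouse. Its log2 fold changes of 0.47 in water-drinking mice (adjusted p = 0.0392) and 0.55 in zinc-drinking mice (adjusted p = 0.0164) passed the adjusted p and not the fold threshold. *Ppp1r15b*, the constitutive partner gene on the wider list, had log2 fold changes of -0.06 and -0.04 and was named after its values were seen.

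*Hspa5* (chr2:34771970-34777547, plus strand) encodes BiP, the main chaperone of the ER and the classic readout of the unfolded protein response. It had 15680, 9275 and 9115 normalized counts in water-PBS, 7321, 8652 and 12367 in zinc-PBS, 12554, 14105 and 12631 in water-Dex, with 10265, 12190 and 10620 in zinc-Dex. The Dex mice lay close together and inside the range of the PBS mice. Its log2 fold change with Dex was 0.21 in water-drinking mice (95% interval -0.19 to 0.61, adjusted p = 0.552) and 0.22 in zinc-drinking mice (95% interval -0.18 to 0.62, adjusted p = 0.527). These intervals allow a rise of up to 0.61 and 0.62 on the log2 scale, which is under the fold threshold. Without water-PBS replicate 1 the value in water-drinking mice was 0.51 (adjusted p = 0.0181), and without both PBS mice rich in early response RNA it was also 0.51 (adjusted p = 0.00252). In zinc-drinking mice the value was 0.47 without zinc-PBS replicate 3 (adjusted p = 0.0927).

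*Dnajb9* (chr12:44205559-44210326, minus strand), an ER co-chaperone of BiP and a well known target of spliced XBP1, had 1715, 959.2 and 640.3 normalized counts in water-PBS, 844.9, 977.3 and 1164 in zinc-PBS, 1050, 1318 and 1001 in water-Dex, with 1093, 1290 and 1026 in zinc-Dex. The 3 water-PBS mice alone spanned the range of all the others. Its log2 fold change with Dex was 0.02 (95% interval -0.61 to 0.66) in water-drinking mice and 0.19 (95% interval -0.45 to 0.83) in zinc-drinking mice. Leaving out 1 mouse at a time moved the first value between -0.25 and 0.49, so its sign was not determined.

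*Atf5* (chr7:44812256-44816658, minus strand), a transcription factor related to ATF4 and abundant in liver, had 4210, 4107 and 3211 normalized counts in water-PBS, 2861, 3194 and 4684 in zinc-PBS, 3486, 3360 and 3220 in water-Dex, with 3240, 3057 and 2836 in zinc-Dex. Each group overlapped every other. Its log2 fold change with Dex was -0.20 (95% interval -0.51 to 0.12) in water-drinking mice and -0.23 (95% interval -0.55 to 0.08) in zinc-drinking mice. It shares 82 exon bases, 4.1% of its length, with *Nup62* and *Il4i1* on the opposite strand.

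The last members were not measured well, as *Chac1* varied widely among the water-PBS mice (SD of log2 values 2.49) and *Asns* was very low. *Chac1* (chr2:119351229-119354381, plus strand), a glutathione-degrading enzyme and a sensitive ATF4 target, had 52.5, 71.9 and 2.20 normalized counts in water-PBS, 48.7, 37.6 and 20.8 in zinc-PBS, 27.4, 26.6 and 13.8 in water-Dex, with 27.2, 36.7 and 10.6 in zinc-Dex. Water-PBS replicate 3, with 2 reads, decided its value: the log2 fold change with Dex in water-drinking mice was -0.90 (95% interval -2.67 to 0.86, adjusted p = 0.553), and -1.46 (adjusted p = 0.012) without that mouse. *Asns* (chr6:7675169-7693254, minus strand), asparagine synthetase, had 2 to 9 reads in every library, and its log2 fold changes with Dex of 0.61 and -0.71 had 95% intervals of -0.88 to 2.11 and -2.09 to 0.67. A change of *Asns* short of several fold was not detectable at this depth.

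**Figure D2:**
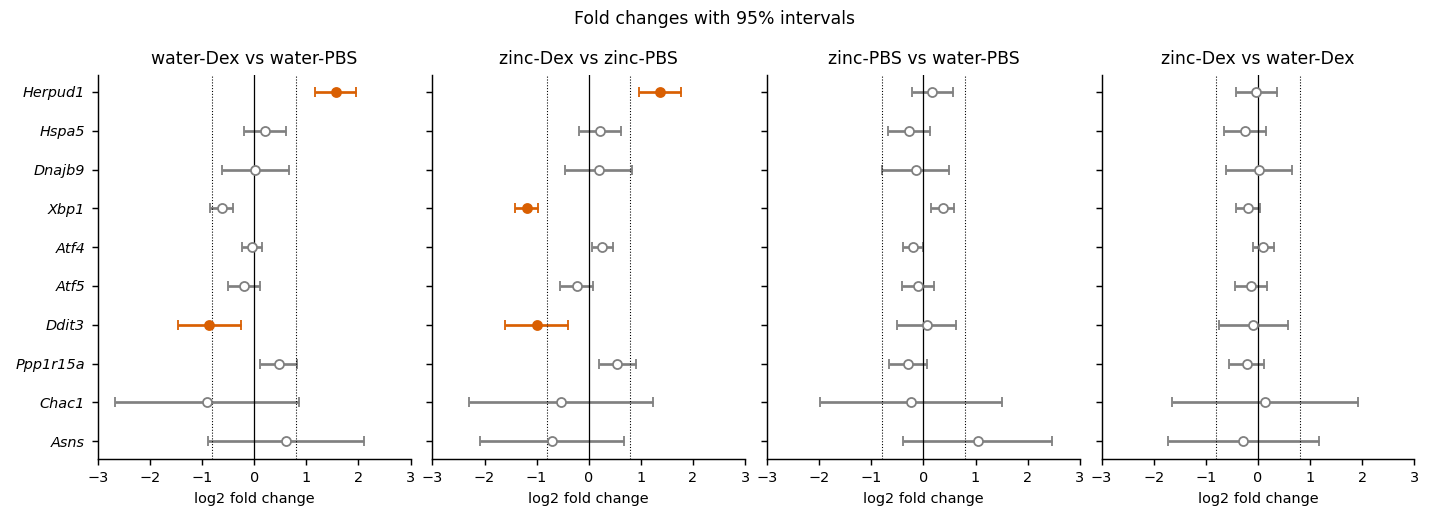
log2 fold changes (x axis) of the 10 genes (y axis) in 4 comparisons, with 95% intervals (bars, from the SE). Filled orange points are called, open grey points are not, and dotted lines mark the fold threshold of 0.8; *Herpud1* and *Ddit3* are called in both Dex panels, *Xbp1* in that of the zinc-drinking mice, and none in the panels on zinc.

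Zinc by itself gave no call among the 10 genes. In PBS-injected mice 0 of the 9 members tested were called, against 0.138% of all genes tested, and none passed the adjusted p. Log2 fold changes lay between -0.30 (*Ppp1r15a*) and 1.04 (*Asns*, without an adjusted p because of its low level). *Asns* was the 1 member past the fold threshold, with a 95% interval of -0.39 to 2.47. At an unadjusted p under 0.05, *Xbp1* was higher with zinc and *Atf4* lower. *Xbp1* had a log2 fold change of 0.37 (95% interval 0.15 to 0.59, unadjusted p = 0.00088, adjusted p = 0.15), with all 3 zinc-PBS mice above all 3 water-PBS mice and 0.30 to 0.46 when single mice were left out. *Atf4* had a log2 fold change of -0.20 (unadjusted p = 0.0478, adjusted p = 0.865). edgeR's quasi-likelihood test also called none. For *Herpud1* the 95% interval ran from -0.22 to 0.57, for *Hspa5* from -0.67 to 0.13, for *Dnajb9* from -0.79 to 0.49 and for *Atf5* from -0.42 to 0.21. The log2 fold changes of these last members turned from -0.27 to 0.19 (*Hspa5*), from -0.15 to 0.42 (*Dnajb9*) and from -0.10 to 0.10 (*Atf5*) without both PBS mice rich in early response RNA, and none passed the adjusted p there. For *Ddit3* it ran from -0.51 to 0.62.

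In Dex-injected mice zinc again gave no call. Of the 9 members tested 0 were called, against 0.469% of all genes tested, and *Asns* again had no adjusted p. Log2 fold changes of the 10 members lay between -0.28 and 0.13. The 95% intervals of *Chac1* (-1.65 to 1.91) and *Asns* (-1.73 to 1.16) reached past the fold threshold in both directions. *Herpud1* had a log2 fold change of -0.03 (95% interval -0.43 to 0.36), *Xbp1* of -0.19 (95% interval -0.42 to 0.03) and *Hspa5* of -0.25 (95% interval -0.65 to 0.15). At an unadjusted p under 0.05 there was none either, the lowest in DESeq2 being that of *Xbp1* (unadjusted p = 0.0881), and edgeR's quasi-likelihood test called none. For the interaction, which asks whether the Dex effect differed between the drinking groups, 0 of 10 members were called, against 0.0191% of all genes, and only *Xbp1* (above) and *Atf4* (0.30, unadjusted p = 0.0335, adjusted p = 0.999) had an unadjusted p under 0.05. For *Herpud1* the interaction was -0.21 (95% interval -0.77 to 0.35).

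Livers that had received both agents, set against livers that had received neither, gave the calls of the zinc-drinking comparison, with 1 member called higher and 2 lower, against 3.69% and 3.55% of all genes tested. *Herpud1* rose by 1.53 (adjusted p = 1.7e-12), *Xbp1* fell by 0.82 (adjusted p = 2.2e-11) and *Ddit3* fell by 0.95 (adjusted p = 0.0223), all on the log2 scale. This comparison shares its water-PBS mice and its zinc-Dex mice with others, so these values are not independent of those above. The value of *Xbp1* sat at the fold threshold and dropped under it, to -0.78, -0.78 and -0.73, without water-PBS replicate 1, water-PBS replicate 2 or zinc-Dex replicate 1. Its call was also lost without both PBS mice rich in early response RNA. The call of *Ddit3* was lost without the same 3 mice or without zinc-Dex replicate 3 (adjusted p 0.0566 to 0.129), without both PBS mice rich in early response RNA (0.163), and in a fit of only the 6 libraries compared (0.0663).

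The wider pathway was read from 73 further genes in 6 lists. With Dex, 5 were called higher and 0 lower in water-drinking mice and 6 higher and 0 lower in zinc-drinking mice, of 70 and 71 tested. Over all genes tested the shares called were 4.89% higher and 4.79% lower, and 5.0% higher and 4.68% lower, so the count called higher lay near the background. The median log2 fold change was 0.10 and 0.07, beside -0.01 and -0.01 over all genes tested. Nearly all of these calls were on the list of stress regulators downstream of ATF4. Of its 11 genes, 4 were called in water-drinking mice (median log2 fold change of the list 0.72) and 5 in zinc-drinking mice (median 1.06). The lists were chosen with earlier results of these data known, so these shares only describe the genes listed. *Ddit4*, which encodes the mTORC1 inhibitor REDD1 and is also a glucocorticoid receptor target, had 59.9, 76.4 and 124.1 normalized counts in water-PBS and 2457, 3093 and 3402 in water-Dex. It rose 34.5-fold in water-drinking mice (log2 fold change 5.11, adjusted p = 2.2e-136) and 51.1-fold in zinc-drinking mice (5.67, adjusted p = 1.3e-158). *Gdf15*, a secreted stress hormone, had 77.7, 63.7 and 45.0 in water-PBS and 279.2, 319.1 and 225.6 in water-Dex, and rose 4.41-fold and 5.87-fold (adjusted p = 3.7e-11 and 8.9e-15). *Cebpb*, a dimer partner of ATF4 that glucocorticoids are also known to induce, rose 4.38-fold and 4.48-fold (adjusted p = 2.8e-23 and 3.6e-24), but 20.7% of its exon length is shared with *Tmem189* on the opposite strand.

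The remaining calls in that list were named after their values were seen, to complete the counts. *Trib3*, a pseudokinase induced through ATF4 and CHOP, had 91.4, 77.4 and 68.1 normalized counts in water-PBS and 158.4, 196.8 and 185.0 in water-Dex, and rose 2.28-fold and 2.51-fold (adjusted p = 1.5e-09 and 3.2e-13). *Sesn2*, a leucine sensor of the mTORC1 pathway, rose 2.78-fold in zinc-drinking mice (adjusted p = 2.1e-15) and passed only the adjusted p in water-drinking mice (log2 fold change 0.72, adjusted p = 0.00021). The other ATF4 target lists held no calls. Of the amino acid supply genes, 8 of 11 were tested in water-drinking mice and 9 in zinc-drinking mice, the rest being too low for an adjusted p, and all 11 tRNA synthetases were tested. Of these, 0 were called with Dex in either drinking group, with median log2 fold changes of 0.16 and 0.10 in water-drinking mice.

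Among the 12 sensors, kinases and phosphatase genes, *Eif2ak4*, which encodes the amino acid sensor GCN2, was the 1 gene called in both Dex comparisons. It had 127.1, 143.8 and 118.6 normalized counts in water-PBS, 150.7, 133.7 and 143.9 in zinc-PBS, 240.6, 267.0 and 276.0 in water-Dex, with 259.6, 262.1 and 307.6 in zinc-Dex. It rose 2.01-fold in water-drinking mice (log2 fold change 1.0, adjusted p = 2.1e-11) and 1.94-fold in zinc-drinking mice (0.96, adjusted p = 5.4e-11). *Atf6* passed only the adjusted p, with log2 fold changes of 0.63 and 0.51 (adjusted p = 0.00012 and 0.0032). *Eif2ak3*, which encodes PERK, had -0.29 and -0.17 and did not pass. Both genes were named after their values were seen. Without both PBS mice rich in early response RNA, 2 of the 12 genes of this list were called in water-drinking mice. Of the 17 ER chaperones and folding enzymes and the 11 genes of ER-associated degradation, 0 were called with Dex in either drinking group. In water-drinking mice 10 of 17 chaperones were higher with Dex (median log2 fold change 0.04), and 1 passed the adjusted p. Without both PBS mice rich in early response RNA 16 of 17 were higher (median 0.22) and 3 passed. Without water-PBS replicate 3 it was 4 of 17 (median -0.13). Of the degradation genes 7 of 11 were higher (median 0.10) and 1 passed, beside 10 of 11 (median 0.17) and 4 without both mice. In these fits 0 were called. In the degradation list, whose function *Herpud1* shares, 1 gene passed the adjusted p in each Dex comparison, *Edem1* (log2 fold changes 0.49 and 0.65, adjusted p = 0.00017 and 1.3e-07), named after its values were seen. The disulfide isomerase *Pdia4* was the 1 chaperone with a call, lower in zinc-Dex than in water-PBS by 0.81 on the log2 scale (adjusted p = 0.00024). It had 3143 normalized counts in water-PBS replicate 1 and 2008 and 2003 in the others, and its value sat at the fold threshold. The call was lost without water-PBS replicate 1 (-0.56, adjusted p = 0.00527), zinc-Dex replicate 1 (-0.74) or zinc-Dex replicate 3 (-0.73), and without both PBS mice rich in early response RNA (-0.56).

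With zinc, 0 of 66 tested genes of these lists were called in PBS mice and 0 of 68 in Dex mice. The others had no adjusted p because of their low levels. The 17 chaperones and folding enzymes leaned to lower values with zinc, 16 of 17 in PBS mice (median log2 fold change -0.20) and 15 of 17 in Dex mice (median -0.27), beside a median of 0.00 over all genes tested in both, and 0 of 17 passed the adjusted p in either. In PBS mice this rested on water-PBS replicate 1: without it 6 of 17 were lower (median 0.03), and without both PBS mice rich in early response RNA 3 of 17 (median 0.06). In Dex mice 14 to 16 of 17 were lower whichever single mouse was left out, and in a fit of only the 6 libraries compared 3 of 17 passed the adjusted p (*Hyou1*, *Manf* and *Creld2*, named after their values were seen) and *Creld2* was called.

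**Figure D3:**
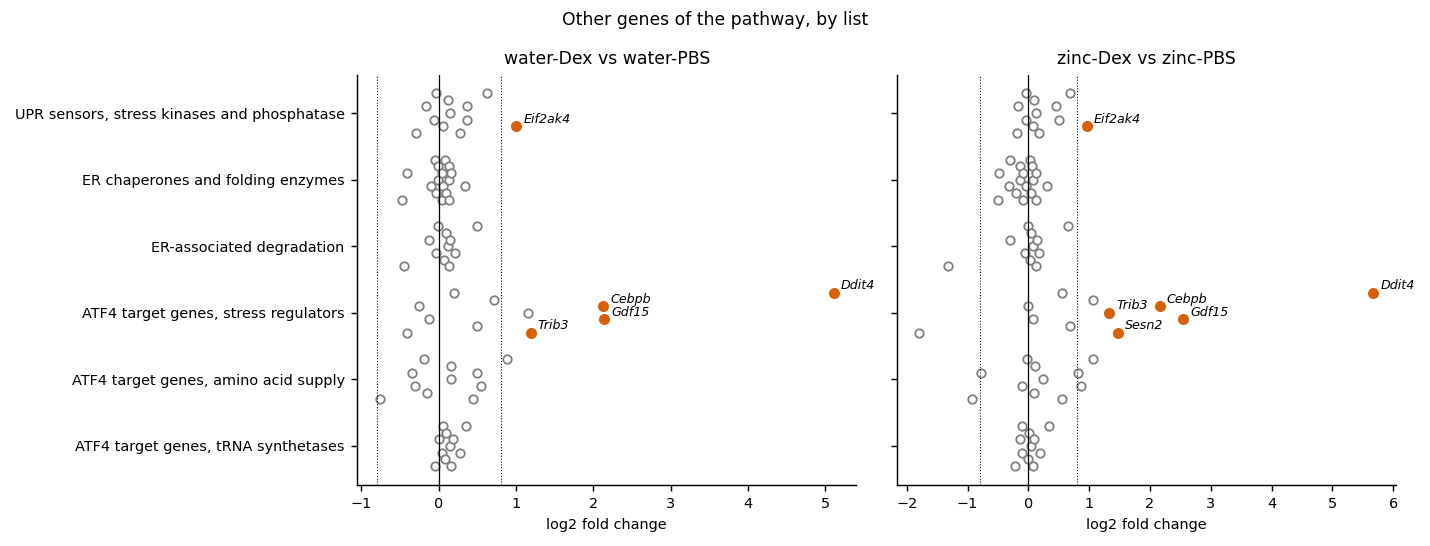
log2 fold changes with Dex (x axis) of the 73 further pathway genes (points), by list (y axis; height within a list only separates points), in water-drinking mice (left) and zinc-drinking mice (right, another x scale). Filled orange points are called and named, dotted lines mark the fold threshold of 0.8; the calls are *Eif2ak4* and 4 or 5 stress regulators, and the chaperone, degradation, amino acid and tRNA synthetase lists hold none.

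The ER chaperones stood high together in 1 water-PBS mouse. Of the 7 members whose mean normalized count was 50 or more, 7 were highest in replicate 1 among the 3 water-PBS mice, as were 16 of 17 chaperones and folding enzymes, 9 of 10 genes of ER-associated degradation at that level and 9 of 11 tRNA synthetases. Over all 9574 genes at that level, 37.1% were highest in that mouse. Among all 12 mice it was highest for 13 of the 17 chaperones, beside 10.4% of all genes at that level. *Hspa5* in this mouse, at 15680, lay above every other mouse of the series, and *Dnajb9*, at 1715, did so as well, whereas *Herpud1*, at 4976, stayed below every Dex mouse. *Xbp1*, at 2826, was nearly level with replicate 2, at 2792. This was 1 of the mice rich in early response RNA. The other, zinc-PBS replicate 1, had a higher sum of that list (7572 beside 4218) but less *Egr1* (1554 beside 3379). It was highest in its group for 1 of 17 chaperones, and zinc-PBS replicate 3 for 15 of 17. All 10 members varied more among the water-PBS mice than among the water-Dex mice, with a median SD of log2 values of 0.40 and 0.12. So did 17 of 17 chaperones, against 60.4% of the 9574 genes with a mean normalized count of 50 or more. In zinc-drinking mice 5 of 10 members varied more with PBS than with Dex, against 47.8% of those 9574 genes. The 10 members include *Ddit3*, *Chac1* and *Asns*, whose means lie under 50.

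**Figure D4:**
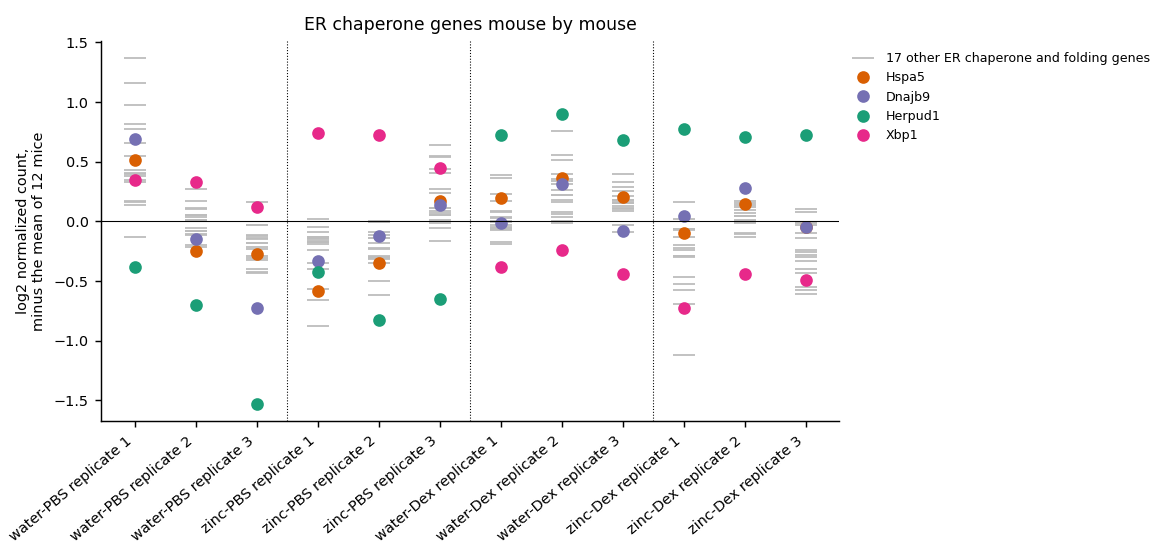
Difference of each gene's log2 normalized count from its mean over the 12 mice (y axis), mouse by mouse (x axis), for 4 members (coloured points) and the 17 further ER chaperone and folding genes (grey dashes); dotted lines separate the groups. *Hspa5* and *Dnajb9* lie with the grey dashes, which are highest in water-PBS replicate 1, while *Herpud1* lies higher and *Xbp1* lower in all 6 Dex mice than in all 6 PBS mice.

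For the 3 called members, the genes with the most similar course over the 12 libraries were listed by the root mean square difference of their centred log2 levels, among 9567 genes. Closest to *Herpud1* were *Chic2* (0.197), *Itgb3* (0.206) and *Ip6k2* (0.207), and the *Herpud1* values themselves varied by 0.80 around their mean on this measure. *Chic2* went from 164.5 normalized counts in water-PBS to 466.5 in water-Dex and 571.4 in zinc-Dex. Closest to *Xbp1*, which varied by 0.489, were *Dsp* (0.178), *Snx30* (0.184) and *Gramd3* (0.194), and all of these were lower in both Dex groups. Closest to *Ddit3*, which varied by 0.547, were *Gimap6* (0.241), *Tgif1* (0.246) and *Atad2* (0.248). None of the 9 genes is on the lists of the pathway.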

How the data were processed

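Liver RNA of 12 mice was made into stranded TruSeq libraries and read from 1 end. Per the study's methods and the submitters' processing notes, the authors mapped reads to mm10 with HISAT2 2.0.4 and deposited raw read counts per Ensembl gene from featureCounts, with multimapping reads excluded. The annotation release is not given in the sources used here, so genes that overlap others or have near-identical copies are uncertain. Symbols and coordinates came from GENCODE M21 (GRCm38); 54809 of 54838 identifiers matched.

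DESeq2 1.42.0 (R 4.3.3) was fitted once to the counts of all 12 libraries, with a coefficient per group, and the script was tested on simulated data. Intervals are 95% intervals from the SE. The members and lists were chosen with earlier results of these data known. The text names all members, up to 3 called genes per list and comparison, those with the largest change at a mean normalized count of 50 or more, and the 3 genes most like each called member. Libraries differed from others of their group by 5.70 to 18.8 times counting error (chi-square per degree of freedom), so none was a copy. The labels do not give litter or cage, and p-values measure the spread between these mice. Alternatives were edgeR 4.0.16 (quasi-likelihood), TMM factors, a filter of 10 counts in 3 libraries, a replicate block, no independent filtering, only the 6 libraries compared, no fold threshold and leaving out each mouse, and, added after seeing the data, leaving out both early-response-rich PBS mice.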

Additional observations from a re-analysis of the deposited data

How the results depend on the processing

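The direction and call of *Herpud1* with Dex held under every alternative run, as did that of *Xbp1* in zinc-drinking mice. Of the alternative counts of called genes, 156 stayed within 1.5 times the count reported and 20 did not. The 156 include counts of 0 in the zinc comparisons that stayed at 0. For members called in water-Dex against water-PBS, 4 of 14 alternatives stayed and 10 did not. In zinc-Dex against zinc-PBS 13 of 14 stayed, and in zinc-Dex against water-PBS 10 of 14. Without a fold threshold, 4 members passed in water-Dex against water-PBS and 5 in zinc-Dex against zinc-PBS, and 12 wider pathway genes in each. The 2 members called in water-Dex against water-PBS became 1 with a replicate block, without independent filtering, with only the 6 libraries compared and without both early-response-rich PBS mice, as *Ddit3* was lost, and 1 to 3 when single mice were left out. In zinc-Dex against zinc-PBS leaving out a mouse gave 2 to 3. In zinc-Dex against water-PBS, the 3 members became 1 without both PBS mice and 1 to 4 when single mice were left out. Of the wider genes, 1 was called in zinc-Dex against water-Dex with only the 6 libraries compared and 0 to 2 when single mice were left out, and 1 for the interaction without both PBS mice. The cause of these shifts was not tested.

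The replicate numbers did not pair the mice: over 18 same-numbered pairs the correlation of deviations from the group means ran from -0.204 to 0.191, with 1 above 0.1. With the number as a block, the *Ddit3* call in water-drinking mice was lost and *Chac1* changed sign with zinc in PBS mice (0.08).

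Signs of uncalled values turned as follows (log2, lowest to highest with single mice left out). For zinc in PBS mice, *Ddit3* ran from -0.11 to 0.24, *Chac1* from -0.80 to 0.38, *Atf5* from -0.34 to 0.04, *Hspa5* from -0.51 to 0.04, *Dnajb9* from -0.42 to 0.31 and *Herpud1* from -0.09 to 0.43, and without both PBS mice *Atf5* was 0.10, *Hspa5* 0.19 and *Dnajb9* 0.42. For Dex in water-drinking mice, *Atf4* ran from -0.09 to 0.04 (0.04 without both PBS mice) and *Dnajb9* from -0.25 to 0.49. For Dex in zinc-drinking mice, *Atf5* ran from -0.37 to 0.01. For zinc in Dex mice, *Ddit3* ran from -0.49 to 0.11, *Asns* from -0.73 to 0.01, *Chac1* from -0.26 to 0.50, *Dnajb9* from -0.08 to 0.15 and *Herpud1* from -0.08 to 0.03. For the interaction, *Ddit3* ran from -0.55 to 0.05 and *Herpud1* from -0.47 to 0.05. Of the values of members, and of the wider genes in zinc-Dex against water-PBS, under alternatives, 676 kept their direction and side of the threshold, 28 lost a call, 5 gained one and 30 changed sign. At 2 to 9 reads *Asns* was limited by depth.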
